A study of Mus musculus with 4 samples.

Results

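The miR-34 family in mouse liver was followed over genotype and time of day in *Clock* mutant and wild type (WT) mice. Of the 611 mouse miRNAs on the array, 4 belonged to it by name: miR-34a on its own, and the miR-34b/c cluster with miR-34b-3p, miR-34b-5p and miR-34c. The family was selected on the measured ratios of mutant to WT of miR-34a on these same arrays, so those ratios are described here without a test. miR-34a was detected in every sample and was brighter in the mutant at both time points, while none of the 3 cluster members was detected in any sample.

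Liver miRNAs were measured on 4 one-colour Agilent arrays, with WT and *Clock* mutant livers on 1 array each at either time. The times were ZT2, that is 2 h into the light phase of a 12 h light and 12 h dark cycle, and ZT14, 2 h into darkness. All animals were males 6 to 8 weeks old, fed freely and caged alone, and the mutants carried the Clock△19 allele, which is present in all tissues and not only in liver. Each array held RNA pooled from 3 mice, so there was no replicate of any condition, and differences between mice could not be measured. The labels give no strain for the WT mice.

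miRNAs are short RNAs that pair with messenger RNAs, mainly through bases 2 to 8 from the 5′ end, the seed, and lower their output. The miR-34 genes are known targets of the transcription factor p53, which responds to DNA damage, and miR-34a is known to restrain cell division and to act on *Sirt1* and on several cell cycle genes. In adult tissues miR-34a is found widely, whereas miR-34b and miR-34c are best known from lung, testis and other tissues with ciliated cells. The arrays carried no measure of p53, so whether the family answered to it in these livers was not tested.

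The mature sequences show why these miRNAs are treated as a family and which of them is set apart. They are from RefSeq (GRCm38.p6), are written 5′ to 3′, and have the seed in capitals. The arrays name no genome build. Of the 4 members 3 had an entry, and the one without was miR-34c. Array names without an arm were read as the 5p arm. miR-449a and miR-449c, which have the same seed, are added for comparison.
mmu-miR-34a: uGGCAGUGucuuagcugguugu
mmu-miR-34b-5p: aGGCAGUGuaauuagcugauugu
mmu-miR-34b-3p: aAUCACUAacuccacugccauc
mmu-miR-449a: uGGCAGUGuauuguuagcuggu
mmu-miR-449c: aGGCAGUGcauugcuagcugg
The seed GGCAGUG was found in 4 of 1679 mature mouse entries, namely the 5p arms of miR-34a, miR-34b, miR-449a and miR-449c. These entries held no 5p arm of miR-34c and no miR-449b, so whether those 2 have the seed could not be looked up here. The longest run of bases that miR-34a and miR-34b-5p had in common was 8 bases long, from position 2 to position 9 of both. With miR-449a the run was 9 bases, from position 1. miR-34b-3p comes from the other side of the miR-34b hairpin and had another seed, AUCACUA, so it belongs to the family by gene and not by seed.

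miR-34a and the miR-34b/c cluster lie on separate chromosomes. Mature miR-34a is at chr4:150068473-150068494 on the plus strand, and its gene *Mir34a* overlapped no other annotated gene. The nearest were *Gm13067*, 9736 bases away on the lower side, and *Gpr157*, 18947 bases away on the higher side. miR-34b-5p is at chr9:51103610-51103632 and miR-34b-3p at chr9:51103574-51103595, both on the minus strand. *Mir34b* and *Mir34c* were 451 bases apart and both lay inside the spans of the protein-coding genes *Hoatz* and *Btg4*. Whether that is exon or intron was not looked up here.

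Each member had 20 spots on an array, from 2 probes of 10 spots each. For miR-34a all 20 spots were well above background on each of the 4 arrays. Its mean background-subtracted signal, before any scaling, at ZT2 was 144 units for WT and 199 for the mutant, and at ZT14 72.9 for WT and 182 for the mutant. The WT array at ZT14 was thus the dimmest for miR-34a. It was also the dimmest as a whole: among the 123 mouse miRNAs that every array detected, the 75th percentile of signal was 339.9 units there and between 503 and 537 on the other arrays.

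Each signal was divided by that percentile of its own array, which evens out the mouse miRNA signal and not the spike-in signal. The scaled level of miR-34a at ZT2 was then 0.269 for WT and 0.395 for the mutant, and at ZT14 0.215 for WT and 0.34 for the mutant. Both mutant arrays were above both WT arrays. In RNA from whole liver, a lower signal from fewer cells of a type and one from less RNA per cell cannot be told apart.

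The ratio of mutant to WT for miR-34a was 1.47 at ZT2, a log2 ratio of 0.56 with a spot SD of 0.16. At ZT14 it was 1.58, a log2 ratio of 0.66 with a spot SD of 0.16. The spot SD is the spread of repeated spots on the arrays combined over both arrays, and holds no difference between mice. Both ratios exceeded it. Among the miRNAs detected on both arrays of a comparison, miR-34a came at place 5 of 160 from the highest at ZT2 and at place 2 of 123 at ZT14. A ratio of 1.5 or more was seen for 1.88% of miRNAs at ZT2 and for 2.44% at ZT14, and miR-34a was past that level at ZT14 only. At ZT2 21.9% of miRNAs were higher in the mutant by more than their spot SD and 30.6% were lower, against 26.0% and 35.8% at ZT14. These values had chosen the family, so nothing is read from its place among them.

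The probes of miR-34a were compared on their own, since they differ in brightness and share the same RNA. For probe A_54_P2498 the scaled spots at ZT2 lay between 0.161 and 0.18 for WT and between 0.216 and 0.252 for the mutant. At ZT14 they lay between 0.118 and 0.141 in WT and between 0.204 and 0.222 in the mutant. The log2 ratio of mutant to WT for this probe at ZT2 was 0.46 with a spot SD of 0.091, and at ZT14 it was 0.68 with a spot SD of 0.10. Spots of mutant and WT did not overlap at either time.

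For probe A_54_P2499 the scaled spots at ZT2 lay between 0.32 and 0.42 for WT and between 0.499 and 0.612 for the mutant, and between 0.275 and 0.337 in WT and between 0.392 and 0.519 in the mutant at ZT14. Again no spot of the mutant overlapped one of WT at the same time point, and the log2 ratios were 0.60 (spot SD 0.16) and 0.65 (spot SD 0.16). The brighter probe gave 2.17 times the signal of the dimmer one in WT at ZT2 and 2.41 times in the mutant at ZT2. At ZT14 it gave 2.25 and 2.21 times. The quotient thus differed most between the ZT2 arrays, where the log2 ratios of the probes were 0.46 and 0.60. Of the 80 spots, 2 were marked as outliers by the scanner software, both of the dimmer probe on the mutant array at ZT14, and were left out.

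**Figure D1:**
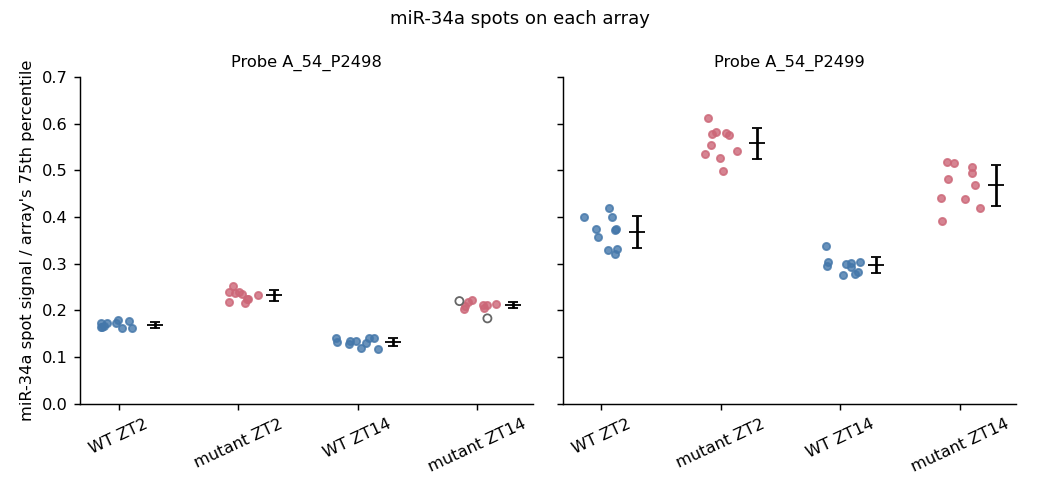
Each point is 1 spot of miR-34a, as signal divided by the array's 75th percentile, for both probes (panels) on the 4 arrays. Filled points were used, open circles are outlier spots, and black bars are the mean and SD of used spots (10 a probe and array, or 8 for A_54_P2498 in the mutant at ZT14). The mutant spots in red lie above the WT spots in blue of the same time for both probes.

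The log2 ratio of miR-34a at ZT14 was larger than that at ZT2 by 0.11, less than the combined spot SD of 0.23, and with 1 array per condition this difference was not tested. A limma fit with genotype and time over all arrays gave a genotype difference of 0.61 for miR-34a on the log2 scale, with a standard error of 0.13. This was at place 2 of the 123 miRNAs from the highest, behind miR-221 at 0.62. The family was chosen with this contrast in view. So no p is given for miR-34a, and nothing is read from its place or from its difference beside the standard error. In that fit 0.0% of miRNAs, 0 of 123, passed an adjusted p of 0.05 for genotype, and 10 had an unadjusted p below 0.05. The fit has 1 residual degree of freedom for each miRNA, which is the departure from genotype and time adding up. The standard error is moderated over all 123 miRNAs and holds no spread between replicate arrays.

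The size of the genotype ratio of miR-34a depended on how the arrays were scaled, although its direction did not. Over the reported setting and 9 other ways of processing, the log2 ratio lay between 0.33 and 1.37 at ZT2 and between 0.29 and 1.499 at ZT14, above 0 each time. The miRNAs as a whole moved too. Without scaling, the median log2 ratio of all miRNAs detected on both arrays was -0.16 at ZT2 and 0.63 at ZT14, and scaling on the spike-in controls put it at 0.81 at ZT14. Taken relative to that median, the ratio of miR-34a lay between 0.40 and 0.62 at ZT2 and between 0.46 and 0.69 at ZT14 over the same settings. Dividing a whole array by a constant cannot change this distance. It was therefore 0.62 and 0.69 by arithmetic without scaling and with the percentile, median and spike-in scalings. The likeness of those settings is no check of the ratio.

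**Figure D2:**
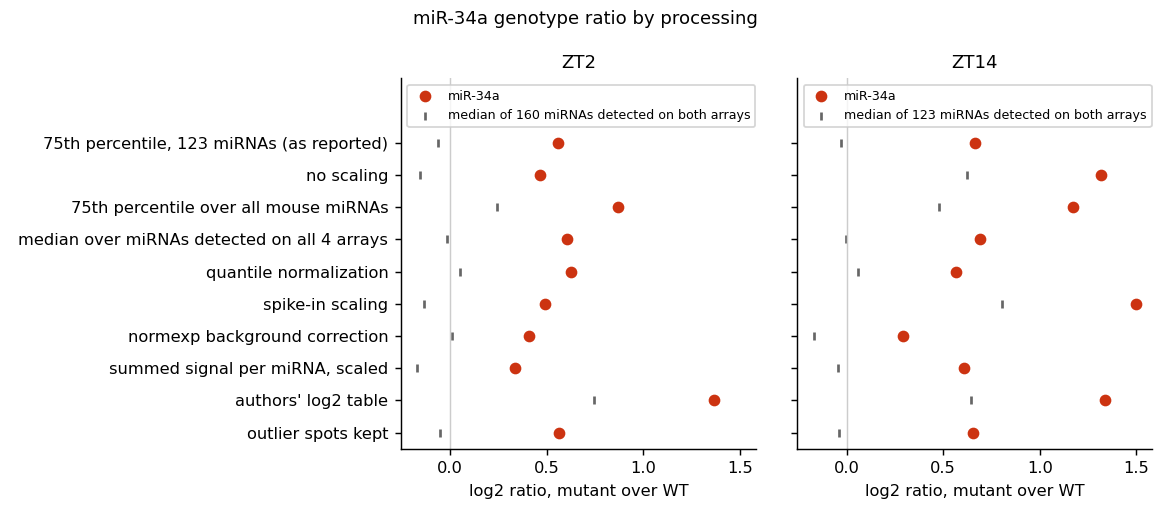
Log2 ratio of mutant to WT for miR-34a (red points) and the median over all miRNAs detected on both arrays (grey ticks), for the reported processing and 9 alternatives, at ZT2 (left) and ZT14 (right). miR-34a lies right of 0 and right of the median in every row. Between rows that differ only in a constant per array, the distance from point to tick is the same by arithmetic. The median itself moves to 0.63 without scaling and to 0.81 with spike-in scaling at ZT14.

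Between the time points miR-34a changed less. Its log2 ratio of ZT14 to ZT2 was -0.32 for WT and -0.22 for the mutant, each with a spot SD of 0.16. So it was lower at ZT14 in both genotypes. The same direction beyond the spot SD was seen for 45.3% of 137 miRNAs in WT and for 49.3% of 140 in the mutant, and the median over all of them was -0.12 and -0.16. The scaled spots of the time points overlapped for both probes in the mutant and for the brighter probe in WT. In limma, time was not a called difference for miR-34a, at -0.27 with a standard error of 0.13 and a Benjamini-Hochberg adjusted p of 0.52. It was called for 0 of the 123 miRNAs (0.0%), with 12 at an unadjusted p below 0.05. Under quantile normalization the direction turned in WT, to 0.06, and it turned in the mutant, to 0.28, when the percentile was taken over every mouse miRNA.

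The miR-34b/c cluster gave no signal to compare. The mean signal of miR-34b-3p at ZT2 was -0.101 units for WT and -3.25 for the mutant, and at ZT14 -3.35 for WT and -5.00 for the mutant. miR-34b-5p, which has the seed of miR-34a, was at 3.61, 2.25, 3.89 and 6.08 units in the same order of arrays. miR-34c was at -0.798, -0.488, 1.74 and 2.95 units. All of these means were lower than what negative control spots gave on their array, on average between 5.24 and 9.72 units with an SD of 3.69 to 4.96. This alone does not set them apart from detected miRNAs, the lowest of which were at 2.98, 2.42, 3.02 and 1.99 units in the same order of arrays. Detection was taken from the scanner software's call for each miRNA.

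Of the 240 spots of these 3 miRNAs over the 4 arrays, 4 were well above background, and all 4 were marked as outliers. The brightest outlier spots reached 134 units for miR-34b-5p in WT at ZT2 and 137 for miR-34c in WT at ZT14. The spots kept lay between -2.25 and 7.56 units in the first case and between -1.07 and 5.54 in the other. No ratio is given for miR-34b-3p, miR-34b-5p or miR-34c, since both sides of each comparison were not detected. These values limit what the arrays could see and do not show that the RNAs were absent. Whether genotype or time moved them below that level was not tested.

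**Figure D3:**
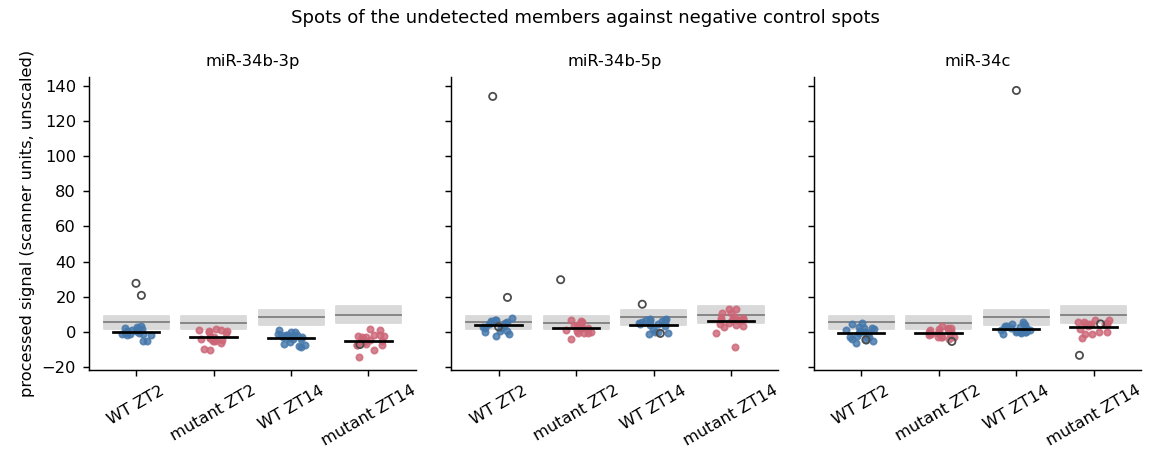
Unscaled processed signal of each spot of miR-34b-3p, miR-34b-5p and miR-34c on the 4 arrays, with used spots filled, outlier spots open and the mean over both probes as a black line. Grey bands show negative control spots of the same array (mean and SD). The black lines are all below the grey control means, from -5.00 to 6.08 units, and the few high spots are open circles.

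The miR-449 relatives were not detected. Of these, miR-449a and miR-449c have the seed of miR-34a, and miR-449b had no sequence entry to look it up in. miR-449a, miR-449b and miR-449c, whose genes lie together inside *Cdc20b* on chromosome 13 and which are known from ciliated cells, had mean signals on the 4 arrays from -6.95 to 3.62 units and 0 of 240 spots well above background. The star strand of miR-34c, miR-34c*, was looked at after the values were seen and was not detected either, at -8.56 to -5.93 units. miR-34a was therefore the only miRNA detected among the members and the miR-449 relatives on this array.

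miRNAs linked to p53 by earlier work formed a list of 13, of which 12 were on the array. It holds miR-192, miR-194 and miR-215, which p53 is known to induce, miR-107, miR-143, miR-145, miR-15a and miR-16, and also miR-200c and miR-29a, miR-29b and miR-29c. All 4 arrays detected the same 9, and miR-215, miR-145 and miR-200c were detected on none. At ZT2, 4 of the 9 were higher in the mutant by more than their spot SD, 1 was lower and 4 were within it, beside 21.9% higher and 30.6% lower over all 160 miRNAs. The median log2 ratio was 0.10 for the list and -0.07 for all miRNAs. At ZT14, 2 were higher, 2 were lower and 5 were within it, beside 26.0% higher and 35.8% lower over all 123 miRNAs, and the median was -0.02 beside -0.03. With 9 miRNAs nothing particular to the list is read from these counts. The highest ratio in the list was 0.25 for miR-16 at ZT2 and 0.19 for miR-143 at ZT14. miR-34a was above both, but it was chosen on these ratios and the list was not, so nothing is read from that.

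miR-192 is a main miRNA of liver, and its scaled level at ZT2 was 7.63 for WT and 8.17 for the mutant, and at ZT14 7.08 and 7.33. Mutant over WT this gave a log2 ratio of 0.10 and then 0.05, both within the spot SD. miR-194, which shares a transcript with miR-192 or miR-215, had ratios of 0.17 and -0.09. In limma 0 of the 9 were called for genotype, with adjusted p from 0.73 to 0.89, and 0 for time, with adjusted p from 0.45 to 0.71. Over all miRNAs 0 of 123 (0.0%) were called for either, so these counts show nothing particular to the list.

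**Figure D4:**
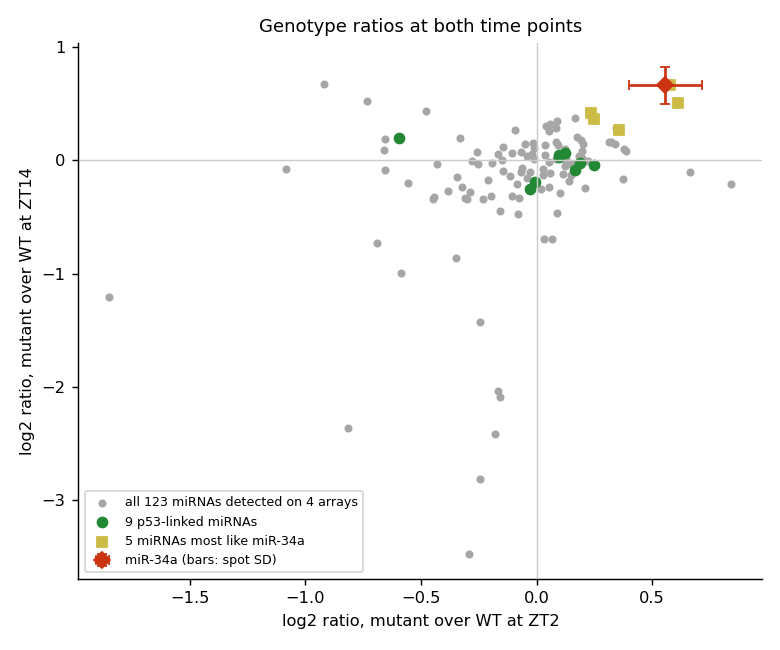
Log2 ratio of mutant to WT at ZT2 (x axis) and at ZT14 (y axis) for the 123 miRNAs detected on all arrays. miR-34a (red, bars are spot SD) lies at 0.56 and 0.66. The 9 p53-linked miRNAs (green) lie between -0.59 and 0.25 on the x axis and between -0.25 and 0.19 on the y axis, and the 5 miRNAs most like miR-34a are squares.

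A log2 ratio above 0.5 at both time points, a level set after the values were seen, was found for 3 of the 123 miRNAs, namely miR-34a, miR-221 and miR-100. The pattern over the 4 arrays was also compared by the root mean square difference of log2 scaled values, each less the miRNA's own mean. The closest to miR-34a were miR-100 at 0.07, miR-221 at 0.08, miR-99a at 0.17, miR-195 at 0.18 and miR-497 at 0.19, beside a median of 0.36 over the 122 other miRNAs. For miR-221 the log2 ratio at ZT2 was 0.58 with a spot SD of 0.12, and at ZT14 0.66 with a spot SD of 0.18. For miR-100 it was 0.61 (spot SD 0.15) and 0.50 (spot SD 0.18). These differ from miR-34a by less than the spot SD. miR-99a, miR-195 and miR-497 had lower ratios, from 0.24 to 0.36 at ZT2 and from 0.26 to 0.42 at ZT14. The likeness is over 4 points only and is a description.

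**Figure D5:**
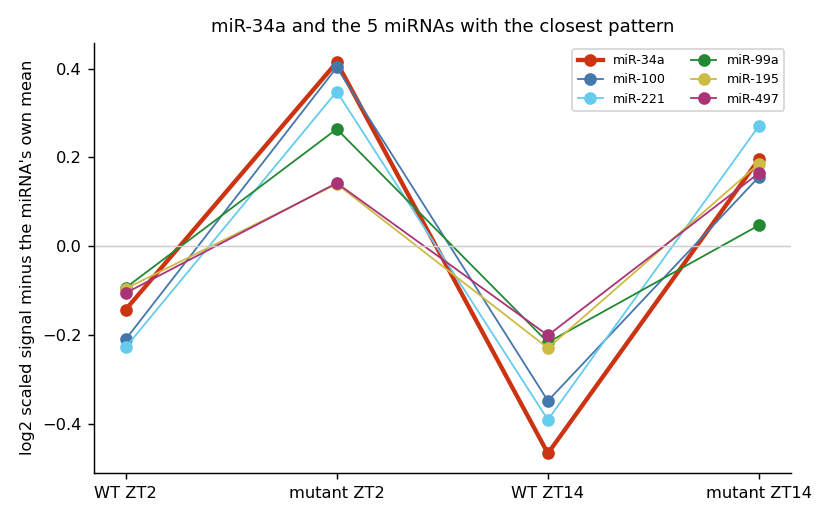
Log2 scaled signal less each miRNA's own mean over the 4 arrays, for miR-34a (thick red line) and the 5 miRNAs closest to it. Each line is 1 miRNA and each point 1 array. All 6 lines lie above 0 on both mutant arrays and below 0 on both WT arrays, and miR-34a runs from -0.47 in WT at ZT14 to 0.41 in the mutant at ZT2.

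Markers of other cells were set beside the miR-34a result. miR-122, the main miRNA of hepatocytes, was detected on all arrays, at a scaled level at ZT2 of 97.3 for WT and 111 for the mutant, and at ZT14 of 86.5 and 98.3. Its log2 ratio of mutant to WT was 0.19 and 0.18, so it was higher in the mutant at both times as miR-34a was, by less. Each sum holds only the miRNAs that the array detected. The 2 endothelial miRNAs summed to between 3.61 and 4.25. The 5 mesenchymal ones, 3 to 4 of them detected, summed at ZT2 to 0.666 for WT and 0.605 for the mutant. At ZT14 their sums were 0.506 and 0.644. Of the 3 that both ZT14 arrays detected, 3 were higher in the mutant beyond the spot SD, beside 26.0% of all 123 miRNAs. At ZT2 0 of 4 were, and 1 was lower, beside 21.9% higher and 30.6% lower over all 160 miRNAs. The red blood cell list of 3 at ZT2 summed to 3.32 for WT and 5.94 for the mutant, and at ZT14 to 2.94 and 2.55.

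The WT array at ZT2 stood apart in 3 lists. The muscle list of 4 had miR-1, miR-133a and miR-133b detected there, with a sum of 0.308, and 0 of 4 on the other arrays. The leukocyte list of 5 summed to 1.20 there, with 3 detected. Elsewhere it summed to between 0.611 and 0.752, with 2 detected, and miR-150 and miR-155 were detected nowhere. The epithelial list of bile ducts, 5 miRNAs, summed to 0.226 there, with 4 detected. Elsewhere it summed to between 0.0811 and 0.154, with 2 to 3 detected, and miR-200c was detected nowhere. The 2 that every array detected, miR-200a and miR-200b, had log2 ratios of mutant to WT of -0.73 and -0.92 at ZT2. At ZT14 their ratios were 0.52 and 0.67. Of these lists, miR-143, miR-145 and miR-200c are also in the p53-linked list. The part of these cell types in the miR-34a ratio at either time was not tested. Without the WT array at ZT2 the limma genotype difference of miR-34a, with genotype alone in the fit, was 0.77, and without the WT array at ZT14 it was 0.45.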

How the data were processed

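RNA of 3 livers was pooled per array, labelled with Cy3 and hybridized to 4 Agilent mouse miRNA arrays, 1 for each genotype and time point. The authors deposited scanner output from Agilent Feature Extraction 10.7.1.1, in which each spot has a background-subtracted intensity on a linear scale, outlier flags and a detection call per miRNA. The authors also deposited a log2 table, used as an alternative only. For miR-34a it equals the log2 of the summed signal minus 1 number per array, which was 4.18 and 3.27 at ZT2. At ZT14 that number was -3.32, the log2 of the value given to undetected miRNAs, so the ZT14 columns carry no scaling. The column medians of that table were -7.51, -6.59, 0 and 0.

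Here, intensities were averaged over spots without outlier flags within probes, then over probes, divided by the 75th percentile of the 123 mouse miRNAs that every array detected, and log2 transformed. No spot was saturated. Detected mouse miRNAs numbered 138 to 193 of 611. The number of arrays limits the precision. Genotype and time were tested with limma 3.58.1 in R 4.3.3 (additive design, Benjamini-Hochberg adjustment). The code was run on simulated data whose added shifts were larger than the miR-34a difference. That run does not show the power of the fit at the sizes seen here. p-values measure only the spread between these arrays. Other steps used Python 3.11.15 (matplotlib 3.10.9, numpy 2.4.6, pandas 2.3.3). The members and lists were chosen with earlier results of these data known. The miRNAs named are the members, the miR-449 relatives, the p53-linked list, the cell type marker lists and the 5 miRNAs closest in pattern to miR-34a. Alternatives were other scalings, normexp with an offset of 50 for the background, the summed signal, the authors' table, single probes, outlier spots kept, spots well above background in place of the detection call, a 2-fold threshold, and for limma other miRNA sets, designs and arrays left out. The qRT-PCR and target predictions are not analysed here.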

Additional observations from a re-analysis of the deposited data

Results flagged for a closer look

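miR-143, a member of the p53-linked list that is also a mesenchymal marker, had log2 ratios of mutant to WT of opposite sign at the time points, each beyond its spot SD: at ZT2 -0.59 with a spot SD of 0.11, and at ZT14 0.19 with a spot SD of 0.13. The ratio at ZT14 was 0.79 higher than that at ZT2. Its scaled level was 0.222 in WT at ZT2 and between 0.146 and 0.167 on the other 3 arrays. The difference was not tested, because each condition had 1 array.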

How the results depend on the processing

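No paired analysis was possible because there was 1 array for each condition. The detection of miR-34a on 4 arrays and of the cluster members on 0 held when spots well above background were used instead. The ratio of miR-34a kept its direction between genotypes in all alternatives. Its place from the highest was less stable, from 2 to 30 of 160 at ZT2 and from 2 to 12 of 123 at ZT14. In limma its genotype place went from 2 to 11 of 123 with the summed signal. It was 15 of 195 over miRNAs detected on at least 1 array. At ZT2 the log2 ratio moved beyond the spot SD to 0.87 with the percentile over every mouse miRNA, 0.33 with the summed signal and 1.37 in the authors' table. At ZT14 it moved to 1.32 without scaling, 1.17 with the percentile over every mouse miRNA, 1.499 with spike-in scaling, 0.29 with normexp and 1.34 in the authors' table. The WT ratio, ZT14 over ZT2, was -0.98 without scaling, -0.028 with the percentile over every mouse miRNA, -0.10 with the median, -1.06 with spike-ins and -0.037 with normexp, and turned to 0.056 with quantile normalization and 6.58 in the authors' table, where the ZT14 columns are unscaled. In the mutant it was -0.013 with the median, 0.0 with quantile normalization and -0.051 with spike-ins, and turned to 0.28 with the percentile over every mouse miRNA and 6.55 in the authors' table. Scalings that divide a whole array by a constant shift the log2 ratio of every miRNA by the same amount. Why the arrays differed in level, and the cause of the other shifts, was not tested.

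The 3 miRNAs at least 1.5-fold higher in the mutant at ZT2 became 0 at 2-fold, 1 without scaling, 14 with the percentile over every mouse miRNA, 5 with the median, 6 with quantile normalization, 1 with normexp, 20 with the summed signal and 106 in the authors' table. The 3 at ZT14 became 0 at 2-fold, 67 without scaling, 38 with the percentile over every mouse miRNA, 11 with quantile normalization, 95 with spike-ins, 0 with normexp, 13 with the summed signal and 70 in the authors' table. In limma, genotype calls went from 0 to 6 with normexp and 79 in the authors' table, and time calls from 0 to 5 without scaling, 3 with spike-ins, 3 with normexp and 123 in the authors' table. With arrays left out in turn, genotype calls ranged from 0 to 7 and time calls from 0 to 13. The 7 came without the mutant array at ZT2 and the 13 without the WT array at ZT14, which also gave the time difference of miR-34a its highest value of 0.060, against -0.60 without the mutant array at ZT14. That time difference turned to 0.13 with the percentile over every mouse miRNA, 0.028 with quantile normalization and 6.56 in the authors' table. The genotype difference of miR-34a ranged from 0.45 to 0.77 with arrays left out.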
